A study of Homo sapiens with 47 samples.

Results

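The regions described here are stretches of the genome that were listed for the H3K4me3Q5ser antibody and that overlapped no listed H3K4me3 interval. They were found by taking the 19535 H3K4me3Q5ser regions of the count table and keeping those that shared not 1 bp with any of the 26514 intervals of the combined H3K4me3 list. This left 7096 regions, called the Q5ser-only regions below, and 12439 regions that overlapped an H3K4me3 interval. The same 7096 regions are absent from the deposited list of overlapping regions. The cells were PC3, an established prostate cancer line, transduced with a control (empty vector), DDC or SLC6A4 construct. The series holds 47 samples, and the values below come from 3 ChIP-seq libraries per line and antibody, 6 input libraries of the empty-vector and DDC lines, and 3 RNA-seq libraries per line. Input of the SLC6A4 line was not analysed here. The labels do not say whether the libraries of a line came from separate cultures, so the p-values measure the spread between these libraries, which may be technical.

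Trimethylation of lysine 4 of histone H3 marks the starts of active and poised genes. Transglutaminase 2 can attach serotonin to the neighbouring glutamine, and the doubly modified tail, H3K4me3Q5ser, has been linked to binding of the general transcription factor TFIID. DDC, aromatic amino acid decarboxylase, makes serotonin from 5-hydroxytryptophan, and SLC6A4 is the plasma membrane serotonin transporter. The doubly modified tail carries the trimethylated lysine, so a region listed for the double mark without an H3K4me3 interval is a place where the 2 peak lists part.

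The 4 stretches of sequence below are the central 300 bases of the regions on which the results turn most. They are the MACC1 start and an ARHGAP32 intron, which lost it in both lines, and the CHTF18 start and an EPC1 intron, which moved in opposite directions with SLC6A4. They are printed 5′ to 3′ on the + strand of GRCh38, and capitals mark matches on either strand to AP-1 (TGANTCA), forkhead (TGTTTAC), ETS (CCGGAAG), SP/KLF (GGGCGGG) and E-box (CANNTG) letters, which may overlap. A match describes the letters only.
MACC1 start, chr7:20216297-20216596: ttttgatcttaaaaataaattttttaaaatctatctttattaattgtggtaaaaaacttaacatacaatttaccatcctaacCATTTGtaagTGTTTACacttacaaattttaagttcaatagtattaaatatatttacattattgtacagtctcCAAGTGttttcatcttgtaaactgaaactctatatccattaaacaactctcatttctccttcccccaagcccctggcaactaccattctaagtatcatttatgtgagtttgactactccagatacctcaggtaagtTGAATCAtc
ARHGAP32 intron, chr11:129022611-129022910: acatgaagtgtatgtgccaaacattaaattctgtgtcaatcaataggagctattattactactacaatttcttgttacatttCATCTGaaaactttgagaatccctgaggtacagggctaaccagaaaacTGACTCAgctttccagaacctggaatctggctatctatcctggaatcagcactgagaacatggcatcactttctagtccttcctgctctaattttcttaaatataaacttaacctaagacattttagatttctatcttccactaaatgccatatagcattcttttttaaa
CHTF18 start, chr16:788961-789260: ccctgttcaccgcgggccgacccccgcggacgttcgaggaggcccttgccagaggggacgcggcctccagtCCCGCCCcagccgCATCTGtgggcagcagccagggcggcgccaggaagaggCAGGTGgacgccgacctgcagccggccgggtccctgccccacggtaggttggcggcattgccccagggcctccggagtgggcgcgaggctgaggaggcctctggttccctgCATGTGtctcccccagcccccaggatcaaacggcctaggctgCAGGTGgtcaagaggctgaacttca
EPC1 intron, chr10:32368909-32369208: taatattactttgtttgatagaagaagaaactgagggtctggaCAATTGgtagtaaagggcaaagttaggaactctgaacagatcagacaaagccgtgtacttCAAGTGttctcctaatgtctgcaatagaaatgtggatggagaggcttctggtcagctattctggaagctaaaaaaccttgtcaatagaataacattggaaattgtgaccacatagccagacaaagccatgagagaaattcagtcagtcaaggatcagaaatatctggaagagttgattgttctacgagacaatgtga

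The MACC1 stretch was 29% GC with no CpG, the ARHGAP32 stretch 35% GC with no CpG and the EPC1 stretch 39% GC with 2 CpG. The CHTF18 stretch was 71.3% GC with 23 CpG. The 3 stretches that were lower with SLC6A4 were thus the AT-rich ones, an order that returns below over all Q5ser-only regions.

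Libraries held 13.5 to 24.8 M read pairs in the regions for H3K4me3Q5ser. H3K4me3 libraries held 3.43 to 5.81 M read pairs there and input libraries 1.39 to 1.83 M read pairs. The median Q5ser-only region held 94.5 read pairs per H3K4me3Q5ser library, 27 per H3K4me3 library and 18 per input library, so small changes are measurable with the first antibody and not with the input. In 7 pairs of libraries a difference beyond the sampling noise was not detected (chi-square test over regions, unadjusted p 0.0534 to 0.78): H3K4me3Q5ser empty-vector 1 and 3, H3K4me3Q5ser SLC6A4 1 and 2, H3K4me3 empty-vector 1 and 2 and also 2 and 3, H3K4me3 DDC 2 and 3, H3K4me3 SLC6A4 1 and 2, and input DDC 2 and 3. Counts with each such pair counted as 1 sample are given beside each main count. The targeted genes were checked in RNA: DDC was at 0, 0 and 0.844 normalised reads in the empty-vector libraries and 23.4, 26.9 and 30.2 in the DDC libraries, and SLC6A4 at 0, 0 and 0.890 against 89.7, 112 and 133. KRT8, KRT18 and VIM were high, KLK3 was at 0 in the empty-vector and DDC libraries, and the leukocyte, endothelial and fibroblast genes PTPRC, CD3E, CDH5 and DCN were at 0 in those libraries. PECAM1 and COL1A1, listed as endothelial and fibroblast markers, were present at 206 to 229 and 35.0 to 45.6 in empty-vector cells and fell with DDC (log2 change -1.49 and -1.64, limma adjusted p 1.68e-08 and 0.000295).

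Q5ser-only regions lay more often in introns and less often at protein-coding starts than the other regions did. Of the 7096 regions, 1561 (22%) held or lay within 1000 bp of the start of a protein-coding gene, against 69.2% of the regions with an H3K4me3 interval. Introns held 2789 of them (39.3%, against 12.3%), exons 683 (9.63%, against 2.52%), intergenic sequence 1298 (18.3%, against 6.19%) and starts of other genes 737 (10.4%, against 9.56%). The remaining 28 lay on contigs with no chromosome. Read the other way, 64.5% of all H3K4me3Q5ser regions in introns had no H3K4me3 interval, and 15.4% of those at protein-coding starts.

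**Figure D1:**
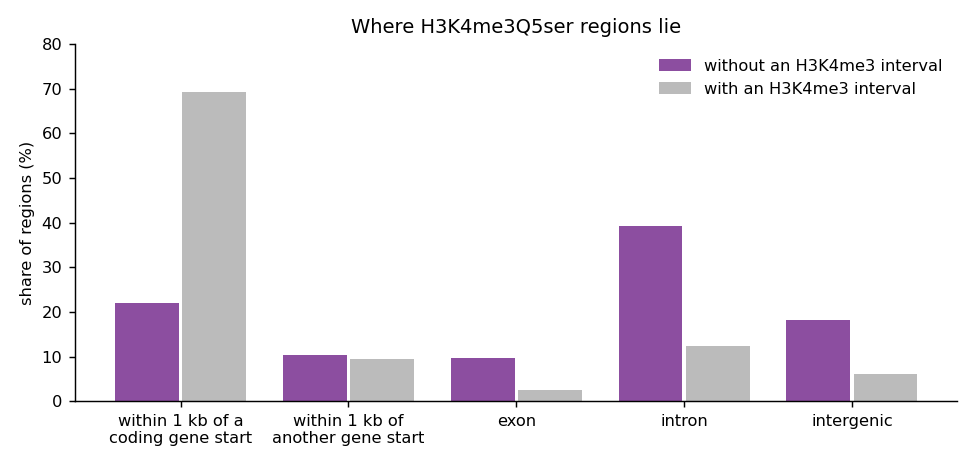
Share of regions in each kind of place, in percent (y axis), for the Q5ser-only regions and for the regions with an H3K4me3 interval; the bars are counts over regions and carry no error, and the contig regions are not drawn. Introns take 39.3% of the Q5ser-only regions and protein-coding starts 22%, against 12.3% and 69.2%.

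They were also short and often close to a larger region. Their median length was 1232 bp, against 6741 bp. An H3K4me3Q5ser region that did hold an H3K4me3 interval lay within 1 kb of 2797 of them (39.4%) and within 5 kb of 4127 (58.2%). An H3K4me3 interval itself lay within 1 kb of 634 (8.93%), and the median gap to one was 6462 bp.

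The rule has an edge that bears on a small number of regions. The 20 Q5ser-only regions within 200 bp of an H3K4me3 interval had a median H3K4me3 level of 16.8 CPM per kb (read pairs scaled to library size and region length) in empty-vector cells, and the 162 regions just inside the other set, with at most 200 bp of overlap, had 10.1. All Q5ser-only regions had a median of 4.90 and all others 9.84. Since the rule removed regions with an H3K4me3 interval, the low H3K4me3 level is a property of the choice and not a finding.

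Base composition separated the places. The median GC content was 48.1% (46.5% in the other regions), 56.7% at protein-coding starts and 44% in introns. The observed over expected CpG ratio was 0.326, against 0.449. Around the starts of the 1215 protein-coding genes that met only Q5ser-only regions, the 500 bases to each side were 66.4% GC with a CpG ratio of 0.742, and 72.1% of them reached 0.6. Around the 10598 that met only the other regions the values were 61.4%, 0.775 and 84.8%.

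Motif letters in the central 300 bases differed little. AP-1 letters were in 7.72% of the Q5ser-only regions and 6.52% of the others, forkhead letters in 4.16% and 4.17%, and E-box letters in 75.6% and 71.1%. ETS letters (2.16% and 3.38%) and the GC-rich SP/KLF letters (9.32% and 13.3%) were in a smaller share of the Q5ser-only regions. Within them, SP/KLF letters were in 21.7% at protein-coding starts and 4.97% in introns, exons and intergenic sequence.

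Chromosome 19 stood out by count. It held 915 Q5ser-only regions of 1575 regions (58.1%), where 36.3% of all regions were Q5ser-only. All 16 regions on chromosome Y were Q5ser-only, and 8 of the 19 regions over the 5S ribosomal RNA gene array on chromosome 1 (228611512 to 228643336) were. Over that array 50.5% of the counts were not whole numbers, because reads that map to several copies were split between them, so its regions cannot be told apart.

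In level, the Q5ser-only regions were weak. Their median H3K4me3Q5ser density was 4.0 to 4.02 CPM per kb in the empty-vector libraries, 4.24 to 4.29 in the DDC libraries and 3.88 to 3.91 in the SLC6A4 libraries, against 8.21 to 8.72 in the other regions. The ratio of the medians of both sets was 0.445 to 0.522 for H3K4me3Q5ser, 0.489 to 0.544 for H3K4me3 and 0.944 to 1.04 for input. Input was thus about level between both sets, and both antibodies were lower in the Q5ser-only set by a similar factor. Among the 6 densest, 5 were 170 to 369 bp long, and input was dense in all 6: a 170 bp region in an EXD3 intron (chr9:137328277-137328446) had 31.7, 30.9 and 33.6 CPM per kb of H3K4me3Q5ser in empty-vector libraries beside 233, 247 and 254 of input.

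The SLC6A4 line was compared with the empty vector to ask where the double mark moves when the serotonin transporter is overexpressed. Serotonin import itself was not measured in these libraries. Starts of genes were higher and gene bodies lower. Of the 7096 Q5ser-only regions, 2683 were higher and 2538 lower by edgeR's quasi-likelihood test at an adjusted p under 0.05, 5221 in all (5170 with agreeing libraries merged), where 82.5% of all regions were called. By at least 2-fold, 369 were higher and 617 lower, where 2.63% and 7.57% of all regions were. At protein-coding starts 1137 rose and 159 fell, with a median log2 change of 0.49, while 746 rose and 1265 fell in introns (median -0.21) and 269 rose and 610 fell in intergenic sequence (median -0.23). The regions with an H3K4me3 interval split less at their starts, with 4357 higher and 3184 lower and a median of 0.07. Lower gene bodies were seen there too, with 340 higher and 1034 lower in introns (median -0.43) and 60 higher and 624 lower in intergenic sequence (median -0.72).

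CHTF18, a clamp loader subunit for sister chromatid cohesion, gave the smallest p among the regions that rose. The region at its start (chr16:782928-795294, also over the starts of RPUSD1 and MSLNL) had 3.00, 2.90 and 2.95 CPM per kb of H3K4me3Q5ser in empty-vector cells, 3.13, 3.63 and 3.43 with DDC and 7.58, 8.06 and 8.09 with SLC6A4. The SLC6A4 libraries lay above all others, and the DDC libraries above the controls by less (0.20, edgeR adjusted p 1.84e-05). The log2 change with SLC6A4 was 1.43 ± 0.03 (SE, taken here and below as the change divided by the square root of edgeR's F; adjusted p = 1.3e-93), and H3K4me3 rose there by 0.91. CHTF18 RNA was at 44.27, 38.01 and 40.03 normalised reads against 45.79, 48.6 and 47.06, a log2 change of 0.21 that did not pass the test (limma adjusted p 0.459). RPUSD1 RNA rose, from 50.6, 55.9 and 58.7 to 99.2, 89.7 and 71.6 (0.64, limma adjusted p 0.00808), and MSLNL was listed at 0.

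Other starts behaved alike in this antibody. At PTPRG, a receptor tyrosine phosphatase, H3K4me3Q5ser went from 2.16, 2.11 and 2.12 to 5.68, 5.69 and 5.84 (log2 change 1.43, edgeR adjusted p 1.9e-67). At WDR5, a core subunit of the H3K4 methyltransferase complexes, the log2 change was 1.00 (edgeR adjusted p 2.6e-68). The RAB40B start rose by 1.02, the OSBPL5 start by 1.35, the HS6ST1 start by 0.99 and a ZDHHC8 intron by 1.55. WDR5 RNA did not pass the test (log2 change 0.18, limma adjusted p 0.52), and neither did that of PTPRG (-0.32, limma adjusted p 0.602), OSBPL5 (-0.61, limma adjusted p 0.0884) or HS6ST1 (-0.29, limma adjusted p 0.385).

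The regions that fell were mostly AT-rich. Those at least 2-fold lower included 336 of the 2789 in introns, 124 of the 1298 in intergenic sequence and 97 of the 683 in exons. The EPC1 intron (chr10:32367738-32370381), in the gene of a NuA4 acetyltransferase subunit, had 7.80, 9.40 and 8.03 CPM per kb in empty-vector cells, 8.79, 8.47 and 8.46 with DDC and 2.96, 2.61 and 2.92 with SLC6A4. Only the SLC6A4 libraries were low (log2 change -1.57 ± 0.07, edgeR adjusted p 3.25e-52). EPC1 RNA rose in the same comparison (0.45, limma adjusted p 0.0364). An ATP6V1D intron, with 41.7% of its counts not whole, fell by 0.91 and an intergenic region at chr10:73418217-73419856 by 1.56 on the log2 scale. Both were dense in input, at 29 to 30.5 and 56.5 to 72.3 CPM per kb in empty-vector cells, against a median of 8.57 to 9.35 over Q5ser-only regions.

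GC content moved with the SLC6A4 change over the whole set. Among the 1415 Q5ser-only regions under 40% GC the median log2 change was -0.74, with 1 higher and 432 lower by 2-fold. It was -0.35 at 40 to 45%, 0.03 at 45 to 50%, 0.32 at 50 to 55% and 0.52 at 55 to 60%. Among the 1121 regions at 60% and above it was 0.65, with 220 higher and 7 lower. H3K4me3 in the same regions went from -0.57 in the lowest bin to 0.55 in the highest.

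With an offset that removes the GC trend fitted over all regions, added after the trend was seen, 107 regions were at least 2-fold higher and 208 lower. The median was then 0.11 at protein-coding starts, 0.02 in introns, -0.02 in exons and -0.12 in intergenic sequence. Of the 208, 70 lay in exons, 68 in introns and 41 in intergenic sequence. GC content, place and line thus moved together, and whether the GC trend arose in the cells or in the preparation of the libraries was not tested. With DDC the same bins held medians from -0.07 to 0.21 and showed no steady order, and input of the DDC line from -0.03 to 0.14.

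**Figure D2:**
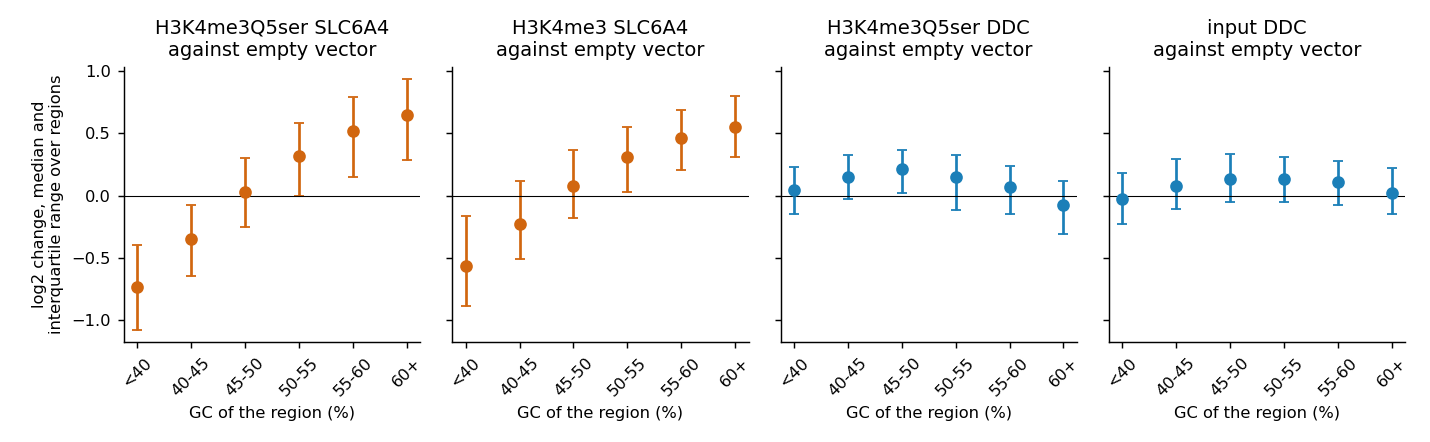
Log2 change against the empty vector (y axis) of Q5ser-only regions in bins of GC content in percent (x axis), for H3K4me3Q5ser and H3K4me3 with SLC6A4 and for H3K4me3Q5ser and input with DDC; points are medians over regions and bars the interquartile range over regions. Both antibodies climb with GC in the SLC6A4 line, from -0.74 to 0.65 and from -0.57 to 0.55, and both DDC series stay between -0.07 and 0.21.

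With DDC, more Q5ser-only regions rose than fell, and of those past 2-fold most fell. Against the empty vector 2026 Q5ser-only regions rose and 1025 fell, 3051 in all (2997 with agreeing libraries merged), where 61.3% of all regions were called. By 2-fold, 8 were higher and 70 lower, where 14 (0.0717%) and 346 (1.77%) of all 19535 regions were. Losses past 2-fold thus outnumbered gains over all regions too. The share that rose was near that over all regions, 28.6% against 29.8%, and the share that fell was lower, 14.4% against 31.5%. The regions with an H3K4me3 interval leaned the other way, with 3797 higher and 5121 lower. The contrast was widest inside genes: of Q5ser-only regions in introns 898 rose and 298 fell (median log2 change 0.16), and of the others in introns 214 rose and 952 fell (median -0.24).

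Input of the DDC line differed too. In the input libraries 135 Q5ser-only regions were higher and 48 lower of 5747 tested (174 in all with the agreeing pair merged), where 6.31% of all regions were called, and the median log2 change was 0.08. By 2-fold, 22 were higher and 17 lower, where 0.128% and 0.216% were. Taken relative to input, an alternative added after the input change was seen, 52 regions were higher and 119 lower in H3K4me3Q5ser, with 15 and 82 past 2-fold. In calls, gains outnumbered losses without input, and losses outnumbered gains relative to it. The share called of all regions was not counted in that fit, so this turn is not read as particular to the Q5ser-only regions. The median log2 change relative to input stayed positive, at 0.04 over 7057 regions. Of the 82 past 2-fold, 30 lay in exons. Input held 18 read pairs in the median region and library, which limits what can be called relative to it.

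The 70 regions that lost at least 2-fold lay far from other signal: 62 of them were over 5 kb from a region with an H3K4me3 interval, and their median gap to an H3K4me3 interval was 55.8 kb. They held 20 protein-coding starts and 20 introns. H3K4me3 was called lower in 22 of the 64 tested there, 5 of them by 2-fold, and higher in none, with a median log2 change of -0.45. Over all regions 17.6% were called with H3K4me3 in either direction, and 0.169% were 2-fold lower. The H3K4me3Q5ser median of -1.17 follows from the choice of the 70, so the 2 medians do not compare the marks. Input was called lower in 3 of the 43 tested there, where 6.31% of all regions were called in either direction.

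MACC1, a gene tied to MET signalling and metastasis, gave the smallest p. The region at its start (chr7:20215117-20217778, 111 kb from the nearest H3K4me3 interval) had 11.4, 11.2 and 11 CPM per kb of H3K4me3Q5ser in empty-vector cells, 1.88, 1.45 and 1.57 with DDC and 3.65, 4.3 and 3.48 with SLC6A4. All 6 libraries of the overexpressing lines lay below the 3 controls. The log2 change with DDC was -2.77 ± 0.08 (edgeR adjusted p 2.41e-75). H3K4me3 fell by 1.05, from 16.9, 16.6 and 15.9 to 7.80, 6.71 and 9.11.

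The difference between both antibodies was itself past the test at MACC1 (interaction log2 change -1.71, edgeR adjusted p 2.25e-25). Input was 16.2, 19.3 and 18.7 against 15.6, 13.7 and 11 (log2 change -0.40, edgeR adjusted p 0.0681). MACC1 RNA was listed at 8.03, 4.24 and 7.60 in empty-vector cells and at 0 in all 3 DDC libraries, too low for the test. GIRGL, a long noncoding RNA that starts in the same region, fell from 19.1, 31.8 and 26.2 to 1.02, 1.07 and 4.87 (log2 change -3.17, limma adjusted p 2.01e-05). With SLC6A4, H3K4me3Q5ser at the MACC1 start fell by 1.56, while GIRGL RNA did not pass (-0.60, limma adjusted p 0.155).

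Inside ARHGAP32, a GTPase-activating protein of neurons, an intron region (chr11:129021361-129024161) had 7.04, 7.07 and 6.93 CPM per kb in empty-vector cells, 0.743, 0.870 and 1.04 with DDC and 1.21, 1.13 and 1.45 with SLC6A4. Neither line overlapped the controls. The log2 change with DDC was -3.0 ± 0.10 (edgeR adjusted p 6.85e-66) and with SLC6A4 -2.46. Input fell there as well, by 0.52 with DDC (edgeR adjusted p 0.0168), and H3K4me3 by 1.45. ARHGAP32 RNA went from 19.1, 20.2 and 19.4 to 12.2, 7.52 and 8.77 with DDC (log2 change -0.99, limma adjusted p 0.0307). With SLC6A4, where the mark was also low, ARHGAP32 RNA did not pass (0.07, limma adjusted p 0.89).

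ACOXL, an acyl-CoA oxidase-like gene, lost more of the double mark than of H3K4me3 on the log2 scale. Its start (chr2:110731536-110735485) had 5.84, 6.21 and 5.32 CPM per kb of H3K4me3Q5ser in empty-vector cells and 0.903, 0.903 and 1.02 with DDC (log2 change -2.63, edgeR adjusted p 8.25e-66). H3K4me3 was 9.68, 9.55 and 8.47 against 6.83, 5.85 and 5.36 (log2 change -0.63), and the interaction was -1.99 (edgeR adjusted p 1.73e-32). Input did not pass the test (0.16, edgeR adjusted p 0.644). It was 7.23, 8.27 and 8.71 CPM per kb in empty-vector cells, near the H3K4me3 density there and above that of H3K4me3Q5ser. Antibody and input densities are each scaled to their own read pairs in regions, so they do not share 1 scale. What part the low H3K4me3 level had in the interaction was not tested. ACOXL RNA fell from 34.1, 24.4 and 27 to 1.02, 3.22 and 0 (log2 change -3.84, limma adjusted p 4.18e-06). In a TC2N intron (chr14:91834069-91836365) the pattern of marks was alike, at -2.76 for H3K4me3Q5ser and -0.39 for H3K4me3, which did not pass the test (edgeR adjusted p 0.0528).

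**Figure D3:**
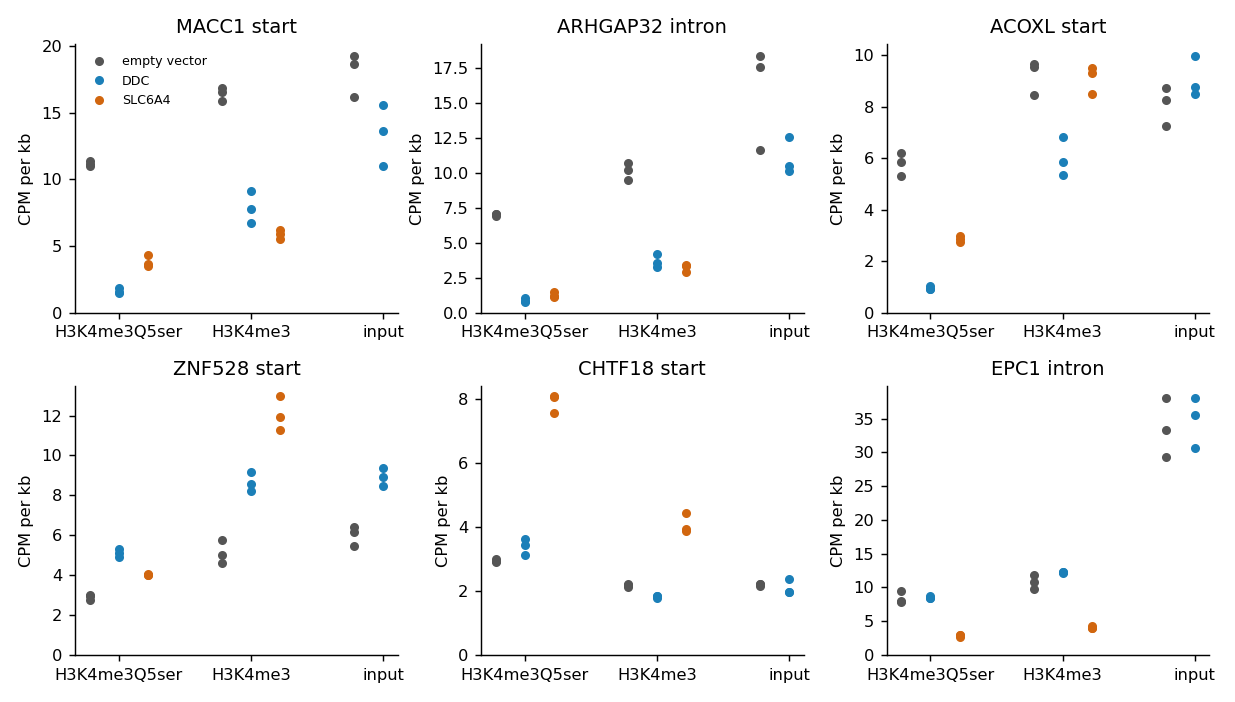
Density in CPM per kb (y axis) of H3K4me3Q5ser, H3K4me3 and input in each library (points) of the empty-vector, DDC and SLC6A4 lines at 6 Q5ser-only regions. The MACC1 start drops from between 11 and 11.4 in empty-vector cells to between 1.45 and 1.88 with DDC, the EPC1 intron drops with SLC6A4, and the CHTF18 start climbs most with SLC6A4, to between 7.58 and 8.09.

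Some epithelial genes were among the starts that lost signal with DDC, and the genes in this paragraph outside the fixed lists were chosen after their values were seen. Of the 6 genes of the fixed epithelial list that start at a Q5ser-only region, only CDH1 fell by 2-fold. KRT7 (-0.77), ITGB4 (-0.41) and OVOL1 (-0.26) fell by less, KRT19 rose (0.12) and CLDN3 did not pass (0.04). At CDH1 (chr16:68737025-68738884), which codes for the epithelial adhesion protein E-cadherin, H3K4me3Q5ser was 5.21, 4.13 and 4.35 CPM per kb in empty-vector cells, 1.89, 1.98 and 2.20 with DDC and 3.10, 3.12 and 3.69 with SLC6A4. The lines did not overlap. The log2 change with DDC was -1.18 ± 0.12 (edgeR adjusted p 1.84e-18), while H3K4me3 (-0.13, edgeR adjusted p 0.7) and input (0.30, edgeR adjusted p 0.624) did not pass. H3K4me3 there was 4.58, 5.97 and 5.36 CPM per kb in empty-vector cells, and input 6.27, 4.66 and 3.82. Both antibodies were thus near input in these densities, which are scaled separately. CDH1 RNA fell from 64.3, 38.2 and 52.4 to 3.05, 2.15 and 5.85 (log2 change -3.54, limma adjusted p 6.37e-08).

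ST14 codes for matriptase, a membrane protease of epithelia. H3K4me3Q5ser at its start (chr11:130159798-130161873) was 4.36, 4.6 and 4.58 CPM per kb, then 1.12, 0.916 and 1.23 with DDC (log2 change -2.06, edgeR adjusted p 1.82e-35), and 4.33, 3.94 and 3.98 with SLC6A4. Only the DDC libraries were low. ST14 RNA fell from 121, 127 and 141 to 8.13, 12.9 and 11.7 (log2 change -3.47, limma adjusted p 1.67e-11), and H3K4me3 did not pass (-0.36, edgeR adjusted p 0.105). H3K4me3 was 7.37, 6.69 and 7.78 CPM per kb in empty-vector cells, and input 6.74, 7.71 and 4.47. H3K4me3 was thus near input and H3K4me3Q5ser near or below it, in densities that are scaled separately. ST14 RNA fell with SLC6A4 too (-0.96, limma adjusted p 9.83e-05), where H3K4me3Q5ser did not pass (-0.15, edgeR adjusted p 0.0865). At LRRC38, which codes for a potassium channel subunit, H3K4me3Q5ser fell by 1.98 and RNA by 2.65 on the log2 scale with DDC. With SLC6A4 LRRC38 RNA fell (-1.48, limma adjusted p 1.28e-05) and H3K4me3Q5ser did not pass (0.10, edgeR adjusted p 0.185).

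Of the 37 genes that start at the 70 regions, 15 had enough RNA to test, 11 fell (9 of them by 2-fold) and 1 rose, where 8.41% of all genes tested fell and 8.94% rose. Beside those above, DAPP1 RNA changed by -2.82, LINC02967 by -3.53, ZMAT4 by -2.15, TNS4 by -1.90, MISP by -0.92 and EPHA1 by -0.70. The gene that rose was CPA4 (0.46, limma adjusted p 0.0411). MYO5B, the myosin of apical recycling, did not pass in RNA (-0.50, limma adjusted p 0.199) although H3K4me3Q5ser at its start went from 2.87, 2.99 and 2.70 to 0.711, 0.609 and 0.833 CPM per kb. SYK (-1.03, limma adjusted p 0.102) and NUDT16L2P (-1.02, limma adjusted p 0.054) did not pass either. Each of the 9 genes that fell by 2-fold had at least 1 DDC library under 10 normalised reads, the level the filter asks for, and all 3 empty-vector libraries above it. They passed the filter through the group where they were high, so nothing is read from the count beside its background.

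**Figure D4:**
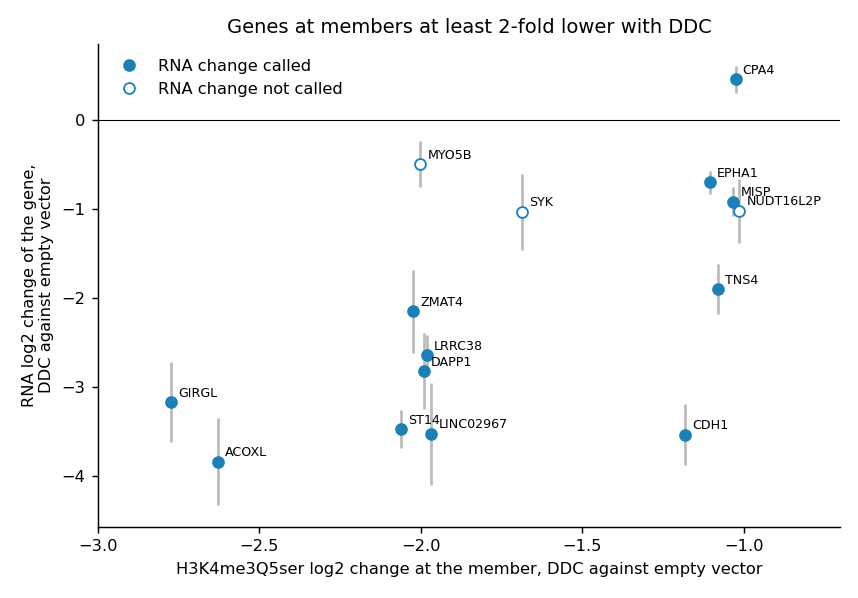
Log2 change with DDC against the empty vector of H3K4me3Q5ser at the start (x axis) and of RNA (y axis) for the 15 genes with testable RNA that start at a Q5ser-only region at least 2-fold lower; points are genes, open where the RNA change did not pass the test, and bars the standard error of the RNA change. CPA4 alone lies above 0 in RNA, and ACOXL, CDH1, LINC02967 and ST14 lie lowest, between -3.84 and -3.47.

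Among the regions that rose with DDC by the smallest p were zinc-finger gene starts. ZNF528, which codes for a KRAB zinc-finger repressor, had 2.97, 2.73 and 2.98 CPM per kb in empty-vector cells, 5.12, 4.92 and 5.33 with DDC and 4.02, 4.01 and 4.08 with SLC6A4. The 3 lines did not overlap. The log2 change with DDC was 0.82 (edgeR adjusted p 4.57e-31). Input rose there as well, from 6.39, 6.18 and 5.44 to 8.90, 9.35 and 8.46 (0.58, edgeR adjusted p 0.00218), and relative to input the change did not pass (0.27, edgeR adjusted p 0.342). At ZNF85 the change was 1.10, with input at 0.07 (edgeR adjusted p 0.921).

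DDC and SLC6A4 were then compared directly, since their comparisons with the empty vector share the same control libraries and cannot be set against each other. Of the Q5ser-only regions 2884 were higher and 2304 lower with DDC, 5188 in all (5149 merged), where 76.9% of all regions were called. By 2-fold, 469 were higher and 345 lower with DDC, where 3.03% and 2.32% of all regions were. At protein-coding starts 151 were higher and 1128 lower with DDC (median log2 difference -0.47). In introns 1522 were higher and 529 lower (54.6% and 19%, median 0.37), and of the other regions in introns 51.9% were higher and 25% lower. Of all Q5ser-only regions 73.1% were called.

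The EPC1 intron was 1.60 higher with DDC on the log2 scale, and the CHTF18 start was 1.22 lower. KRT7, a simple epithelial keratin, was 1.09 lower at its start and MYO5B 2.53 lower. With the GC offset, 94 regions were at least 2-fold higher with DDC and 55 lower, and the median was -0.07 at protein-coding starts and 0.20 in introns.

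H3K4me3 itself moved in these regions too, though none held an H3K4me3 interval. With SLC6A4 2066 of the 6535 regions with enough reads rose and 1094 fell, 3160 in all (3146 merged), where 61.5% of all regions were called. By 2-fold, 378 were higher and 294 lower, where 2.45% and 3.36% were. At protein-coding starts 935 were higher and 51 lower, with a median of 0.43, against 0.16 in exons and -0.07 in introns. With the GC offset 1094 rose and 581 fell. The median was then 0.10 at protein-coding starts, 0.05 in exons and 0.02 in introns. At least 2-fold higher were then 34 of 1530 at those starts, 51 of 585 in exons and 163 of 2517 in introns.

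The 2 antibodies mostly moved together with SLC6A4. Of the 369 regions at least 2-fold higher in H3K4me3Q5ser, 320 could be tested with H3K4me3, 284 were higher there and 1 was lower. Of the 617 lower by 2-fold, 545 could be tested, 430 were lower and 1 was higher. Over all regions 61.5% were called with H3K4me3 in either direction. Both antibodies followed GC content in this line. With the GC offset 107 regions were at least 2-fold higher and 208 lower in H3K4me3Q5ser, and the overlap was not counted there. The libraries are separate, but both antibodies were used on chromatin of the same lines.

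With DDC, 282 regions rose and 224 fell in H3K4me3, 506 in all (493 merged), where 17.6% of all regions were called. By 2-fold, 24 were higher and 21 lower, where 0.142% and 0.169% were. With the GC offset 35 were higher and 7 lower by 2-fold, and DESeq2 called fewer, as given in the closing section. The 24 and 21 rest on about 27 read pairs per region and library. Between DDC and SLC6A4, 1182 were higher and 2010 lower with DDC, 3192 in all (3191 merged), where 60.2% of all regions were called. By 2-fold, 314 were higher and 352 lower, where 1.94% and 2.26% were.

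Whether H3K4me3Q5ser changed differently from H3K4me3 was tested as an interaction over all 18 antibody libraries. With DDC it was called in 355 of 7090 regions (343 merged), 187 toward a higher and 168 toward a lower double mark, where 15.2% of all regions were called. By 2-fold, it was called higher in 31 and lower in 35, where 0.169% and 0.466% were. With SLC6A4 it was called in 1063 (1042 merged), 338 higher and 725 lower, where 29.3% were called. By 2-fold, 25 were higher and 220 lower, where 0.128% and 1.41% were. Of those 725, 167 lay in zinc-finger genes. H3K4me3 is low in these regions by the rule, and its part in the interaction was not tested.

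In zinc-finger genes both marks moved by different amounts with SLC6A4. This group was chosen after the chromosome 19 count was seen and holds the 324 Q5ser-only regions whose midpoint lies in one of 176 genes named ZNF, ZFP, ZSCAN or ZKSCAN, most of them DNA-binding repressors that silence transposable elements. Of these, 214 lay on chromosome 19, 195 in introns, 58 in exons and 47 at protein-coding starts, with a median GC content of 43.1%. Their median H3K4me3 density was 4.68 to 4.95 CPM per kb in empty-vector libraries, 6.21 to 6.51 with DDC and 8.69 to 8.79 with SLC6A4. Median H3K4me3Q5ser was 3.52 to 3.54, 4.49 to 4.58 and 3.80 to 3.85. H3K4me3 was thus highest with SLC6A4 and H3K4me3Q5ser highest with DDC, and no 2 lines overlapped in either. These levels carry no GC offset.

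In the test, H3K4me3 rose with SLC6A4 in 238 of 314 of these regions and fell in 8, with 102 at least 2-fold higher and a median log2 change of 0.82, against 0.10 in the other Q5ser-only regions. H3K4me3Q5ser rose in 147 and fell in 60 of 324, and the interaction was called in 170, 167 of them toward a lower double mark. With the GC offset H3K4me3 rose in 243 and fell in 1, while H3K4me3Q5ser rose in 213 and fell in 20 of 324, where its median went from 0.17 to 0.37. The interaction with the offset was called higher in 2 and lower in 148. Many of these genes are near copies of each other. In the 158 tested regions where every count was whole, and so no read was split between copies, 125 rose and 3 fell.

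With DDC, H3K4me3Q5ser rose in 213 of 324 zinc-finger regions and fell in 4, and H3K4me3 rose in 109 of 314 and fell in 1, with medians of 0.35 and 0.39. The interaction with DDC was called in 14 of 324, higher in 4 and lower in 10. H3K4me3Q5ser was higher with DDC than with SLC6A4 in 165 and lower in 46 (median 0.27), but in 67 and 61 with the GC offset (median 0.04). Input moved the same way, with 30 higher and none lower of 288, a median of 0.31, and densities of 8.48 to 8.82 CPM per kb in empty-vector and 11.1 to 11.3 in DDC libraries. By DESeq2, 5 of all Q5ser-only regions were called in input. In RNA of the genes that hold these regions, 5 rose and 2 fell of 120 tested with DDC, where 8.94% and 8.41% of all genes did, and 1 rose and 5 fell of 112 with SLC6A4, where 10.2% and 9.28% did. The part of input in the DDC gains at these genes was not tested beyond these values, and no SLC6A4 input stands beside the H3K4me3 gain.

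**Figure D5:**
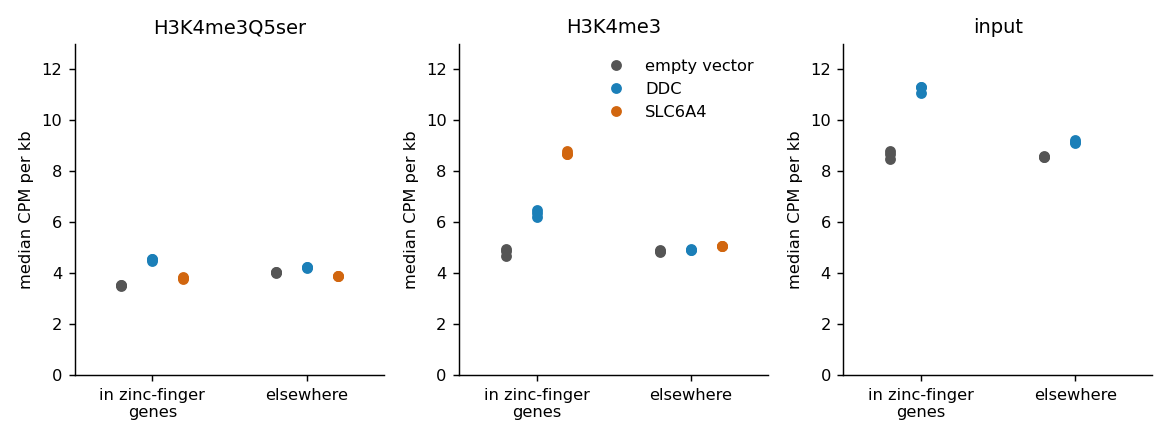
Median density in CPM per kb (y axis) in each library (points) of H3K4me3Q5ser, H3K4me3 and input over the 324 Q5ser-only regions in zinc-finger genes and over the other Q5ser-only regions, by line. H3K4me3 over zinc-finger regions climbs from 4.68 to 4.95 with the empty vector to 8.69 to 8.79 with SLC6A4, and input climbs to 11.1 to 11.3 with DDC.

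A region on chromosome 19 outside this group (chr19:12371042-12375642, over the pseudogene RPS29P23, with 33.3% of its counts not whole) had 4.22, 5.68 and 5.62 CPM per kb of H3K4me3 in empty-vector cells and 12.6, 11.6 and 10.6 with SLC6A4, while H3K4me3Q5ser was 3.67, 3.51 and 3.25 against 3.16, 3.07 and 3.00. H3K4me3 rose by 1.13 and H3K4me3Q5ser fell by 0.18 on the log2 scale, and the interaction was -1.31 (edgeR adjusted p 6.19e-26). Within the group, a ZNF615 intron gave 0.82 for H3K4me3 and -0.44 for H3K4me3Q5ser. The EPB41L3 start rose by 1.24 in H3K4me3 and 0.80 in H3K4me3Q5ser with SLC6A4.

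As a share of all read pairs in regions, Q5ser-only regions took the most in the SLC6A4 libraries with either antibody. For H3K4me3Q5ser the share was 5.19 to 5.22% in empty-vector, 5.48 to 5.54% in DDC and 5.94 to 5.95% in SLC6A4 libraries, with no overlap (exact permutation test over 9 libraries, adjusted p 0.0107, or 0.0286 with agreeing libraries merged). For H3K4me3 it was 6.14 to 6.22%, 6.22 to 6.30% and 7.33 to 7.39% (exact permutation, adjusted p 0.0161, and 0.133 merged), and the empty-vector and DDC libraries overlapped. Both tests are over the 3 lines, and DDC against the empty vector alone was not tested. For input it was 10.2 to 10.3% in empty-vector and 10.8 to 10.9% in DDC libraries, where 3 against 3 cannot give an exact permutation p under 0.1, the value found.

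Most genes at Q5ser-only regions were weakly expressed or silent in RNA. Of 2642 genes that start in or within 1000 bp of one, 2624 were listed and 38.3% had enough RNA to test with DDC, against 61.5% of the genes that start only at other regions. With DDC 69 of 1005 rose and 83 fell, near the background of 8.94% and 8.41% of all genes tested. With SLC6A4 68 of 1007 rose and 112 fell, where 10.2% and 9.28% of all genes tested did. At starts whose H3K4me3Q5ser was at least 2-fold higher with SLC6A4, 8 of 111 genes rose and 5 fell. At starts at least 2-fold lower, 0 of 21 genes rose and 5 fell. Genes can pass the filter through the empty-vector libraries alone, so nothing is read from that count.

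Among the genes at these starts the largest RNA falls by p with DDC included ITGB4, the beta subunit of the hemidesmosomal integrin, which went from 636, 601 and 572 normalised reads to 156, 178 and 156 (log2 change -1.88, limma adjusted p 1.76e-12). C15orf48, a mitochondrial protein gene that also hosts MIR147B, went from 728, 634 and 582 to 214, 221 and 252 (-1.49, limma adjusted p 2.13e-10), and PPARG, a lipid-sensing nuclear receptor, fell by 0.89. Rises were smaller: NPLOC4, a ubiquitin-binding cofactor of VCP, gained 0.60 and MDK, the growth factor midkine, 0.79. With SLC6A4 IL32 rose by 0.79, FHL1 by 1.34 and INHBB by 0.99, and APOBEC3C (-1.54), TIMP1 (-1.52) and LOXL1 (-0.95) fell. H3K4me3Q5ser with SLC6A4 was called higher at the start of each of these, from 0.19 at TIMP1 to 1.14 at INHBB on the log2 scale. The starts of PPARG and INHBB also meet a region with an H3K4me3 interval.

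Lists of genes were set against these starts. Of 18 luminal and basal epithelial genes, 6 start at a Q5ser-only region (CDH1, CLDN3, OVOL1, KRT7, KRT19 and ITGB4). The OVOL1 start also meets a region with an H3K4me3 interval. With DDC 4 of the 5 with testable RNA fell (CDH1, KRT7 at -0.85, KRT19 at -0.72 and ITGB4), and with SLC6A4 3 of 5 fell (CDH1 at -1.17, KRT19 at -0.24 and ITGB4 at -1.28). Over all genes tested 8.41% fell with DDC and 9.28% with SLC6A4. With DDC, CDH1 passed the filter through the empty-vector libraries, where it was high, so nothing is read from these counts. H3K4me3Q5ser at these starts with DDC was lower at CDH1, KRT7 (-0.77), ITGB4 (-0.41) and OVOL1 (-0.26), higher at KRT19 (0.12), and did not pass at CLDN3 (0.04, edgeR adjusted p 0.765). With SLC6A4 it rose at CLDN3, OVOL1, KRT7, KRT19 and ITGB4, by 0.31 to 0.55, and fell at CDH1 by 0.46.

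Neuroendocrine and neural genes, which prostate cancer can switch on when it leaves the luminal state, were few here. Of 18 neuroendocrine markers, 3 start at a Q5ser-only region: ENO2, whose RNA fell with DDC (-0.42) and with SLC6A4 (-0.79), DLL3, which passed in neither, and VGF, listed at 0 in every library. POU3F2, SOX2 and HES6, from a list of 16 neural factors (15 matched), were at 0 or under 10 normalised reads. The SOX2 start also meets a region with an H3K4me3 interval. At the POU3F2 start, POU3F2 H3K4me3Q5ser was 0.75 lower with DDC than with SLC6A4 on the log2 scale in 1 of its 2 regions and 1.33 lower in the other.

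Serotonin handling was met at 2 of 15 genes, the receptors HTR1D and HTR7, and the HTR7 start also meets a region with an H3K4me3 interval. H3K4me3Q5ser at the HTR1D start fell by 0.54 with DDC and rose by 0.59 with SLC6A4, with a direct difference of -1.12 (edgeR adjusted p 4.61e-14), and HTR1D RNA stayed under 3 normalised reads. Of 12 immediate early genes only IER3 starts at such a region (RNA -0.42 and -0.56), and of 16 genes of the H3K4 methylation machinery WDR5.

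CUT&Tag gave no second measure of H3K4me3 in these regions. Its deposited tables hold 16045 intervals, each identical to an interval of the H3K4me3 ChIP list, so 0 overlap a Q5ser-only region by the rule itself.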

How the data were processed

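H3K4me3Q5ser and H3K4me3 ChIP-seq of crosslinked, sonicated chromatin, input and poly(A) RNA-seq were used from PC3 lines with empty vector, DDC or SLC6A4. Region counts are estimated counts that the authors made with featureCounts 2.0.3 from deduplicated alignments, splitting multi-mapping reads as fractions, per the file headers. They were rounded here. The counting was set as strand-specific although the regions carry no strand, and the effect on the counts is not known. RNA values are deposited as a normalised signal, counts divided by size factors, in 2 tables normalised separately, and whole reads were recovered for 100% of values within 0.01. The build was GRCh38, and HISAT2 2.1.0, Bowtie2, MACS2, HOMER and DESeq2 are named in the submitters' processing notes. The peak lists carry positions only.

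Counts were tested with edgeR 4.0.16 (quasi-likelihood, TMM over all 19535 regions, all lines of an antibody in one fit) in R 4.3.3, and RNA with limma 3.58.1 on log2(value + 1) for genes of at least 10 in at least 3 libraries. RNA fold changes are on that scale, which understates the change of low genes. edgeR on the recovered reads is an alternative chosen after seeing the data, as are the GC offset, the merging of agreeing libraries and the fit relative to input; DESeq2, other scalings and filters, a replicate block, leaving out each library and stricter region rules were the others. Calls are at a Benjamini-Hochberg adjusted p under 0.05, with 2-fold as a second limit. Since counts were scaled within the regions, with no spike-in, a change of all regions together is not seen. Places and genes come from GENCODE 44, with 1000 bp around a start.

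Regions were named by rule: for each comparison of an antibody up to 4 in each direction with the smallest adjusted p whose groups do not overlap, the 6 of highest level and the 4 longest. Genes named were those starting at these regions, up to 6 rises and 6 falls in RNA per comparison among genes starting at a Q5ser-only region, and genes of the lists; others are said to be chosen after their values were seen. The members and lists were chosen with earlier results of these data known. The edgeR fit was tested on simulated data. Replicate numbers did not pair the libraries. Some items are not reported here.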

Additional observations from a re-analysis of the deposited data

Results flagged for a closer look

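The direct test between both overexpressing lines found H3K4me3Q5ser to differ in 5188 of the Q5ser-only regions, so the change from the empty vector was not the same with DDC as with SLC6A4 there. The difference turned with place. At protein-coding starts 151 regions were higher and 1128 lower with DDC than with SLC6A4. In introns the order was the opposite, with 1522 higher and 529 lower (54.6% and 19%). The share called was 73.1%, against 76.9% of all regions, and introns of the other regions also leaned higher with DDC, with 51.9% higher and 25% lower.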

How the results depend on the processing

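Of 1040 values for single regions and genes under the alternatives run, 1038 kept direction and side of the threshold, and ZNF528 and SEC13 relative to input did not pass. Relative to input, calls in H3K4me3Q5ser with DDC went from 3051 to 171 (52 higher, 119 lower), with 15 at least 2-fold higher. The GC offset gave 22 regions 2-fold higher in that comparison, 107 higher and 208 lower by 2-fold with SLC6A4, and 94 and 55 between DDC and SLC6A4. For H3K4me3 the offset gave 7 regions 2-fold lower with DDC, 1675 calls and 51 regions 2-fold lower with SLC6A4, and 1298 calls with 41 and 98 past 2-fold between DDC and SLC6A4. It gave 224 calls of the interaction with DDC. DESeq2 gave 173 calls for H3K4me3 with DDC (8 higher and 3 lower by 2-fold), 235 for that interaction and 5 for input. The balance of higher against lower calls moved under the offset to 2457 and 1155 for H3K4me3Q5ser between DDC and SLC6A4, 342 and 110 for H3K4me3 with DDC and 122 and 22 for input. Scaling by library totals gave 195 and 1026 for the interaction with SLC6A4. RNA calls with DDC went from 152 to 96 with only genes whose start lies inside a region. The cause of these moves was not tested.

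Leaving out 1 library at a time gave 8 to 15 regions 2-fold higher in H3K4me3Q5ser with DDC, 23 to 38 in H3K4me3 with DDC, 110 to 129 input calls and 99 to 149 RNA calls with DDC. The 99 came without empty-vector replicate 2, and without DDC replicate 3 the balance was 44 higher and 83 lower. The exact permutation adjusted p for the share of read pairs was then 0.1 to 0.2 for both antibodies, where fewer libraries limit the smallest p, and 0.133 for H3K4me3 with agreeing libraries merged. Replicate numbers did not pair the libraries, and the replicate block gave 3036 calls in H3K4me3Q5ser with DDC, 159 in RNA with DDC and 185 with SLC6A4. Depth limits input most, at 18 read pairs in the median region and library. Comparisons with input of the SLC6A4 line were not run.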
